A study of Mus musculus with 15 samples.

Results

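Dendritic cells (DC) of GM4 and GM type were compared before stimulation, on 6 of the 15 arrays of the series. The arrays were chosen by their titles: all 3 titled GM4 at 0 h were set against all 3 titled GM at 0 h. Both types were grown from bone marrow of female NOD mice aged 6 to 8 weeks, a strain that develops autoimmune diabetes. Cultures ran for 4 days, GM DC with GM-CSF alone at 1 ng/ml and GM4 DC with GM-CSF and interleukin-4 (IL-4) at 1 ng/ml each, and each group had n = 3 arrays of total RNA. The cells were then enriched on metrizamide, a density gradient medium, at 16% for GM DC and 14.5% for GM4 DC, so that IL-4 and the gradient cannot be told apart here. The labels call the cultures dendritic cells from bone marrow without stating a purity, and in the series title GM4 DC stand for the therapeutic type and GM DC for the other. Later arrays, used here only to check labels and to follow these differences, came from the same kinds of culture after 6 or 20 h with LPS, a bacterial cell wall lipid, at 10 µg/ml and interferon-γ at 50 ng/ml. For replicate 1 of GM4 at 0 h the labels omit doses and gradient, and the source names of the 0 h GM4 arrays mention LPS with interferon-γ although their titles say 0 h.

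GM-CSF is a growth factor that drives myeloid progenitors of the marrow towards DC, macrophages and granulocytes, and its receptor signals through JAK2 and STAT5. IL-4 binds a receptor built on the IL-4 receptor α chain, acts through JAK1, JAK3 and the transcription factor STAT6, and is known for inducing alternative activation genes in macrophages and for turning GM-CSF cultures of monocytes and marrow away from macrophages and towards DC. Mature DC carry costimulatory B7 molecules and the lymph node homing receptor CCR7, whereas immature DC and macrophages are richer in uptake receptors and lysosomal enzymes.

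Gene expression was measured with 1 Affymetrix oligonucleotide array per sample, and the values are signal intensities on a linear scale. The median signal was 43.7 to 48.4 on the 6 arrays, and signals below 16 made up 31.0% to 35.3% of probe sets. Replicates correlated at 0.967 to 0.985 within a group and arrays of different groups at 0.946 to 0.960, over 12422 probe sets. Differences are GM4 minus GM on log2(signal + 16), a scale on which changes of dim genes come out too small. A ± after a log2 difference is limma's standard error and a ± after a signal is an SD, and a probe set was called when its Benjamini-Hochberg adjusted p from limma was under 0.05. The limma fit took all 15 arrays in 6 groups, so its standard errors and p-values rest on a spread pooled over 0, 6 and 20 h. Nothing in the labels says which arrays share a culture, so that spread is one between samples. In bulk RNA, fewer cells of a type and less of a transcript per cell cannot be told apart.

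The arrays titled 0 h had low signal of stimulation genes in both groups. The summed signal of 22 genes of the LPS and interferon-γ response was 3929 to 6010 on the GM arrays and 8364 to 9659 on the GM4 arrays at 0 h, against 75301 to 85221 and 37294 to 39825 after 6 h of stimulation. Every 6 h array was above every 0 h array for 22 of the 22 genes in GM DC and for 21 of 22 in GM4 DC. RNA control measures moved with the group at 0 h. The 3′/5′ signal ratio of the β-actin controls, which goes up with degraded RNA or short copies, averaged 1.70 ± 0.150 (SD, n = 3) for GM and 1.32 ± 0.110 for GM4 DC, without overlap (exact two-sided permutation p = 0.1, the smallest that 3 against 3 arrays allow, 0.15 adjusted over 3 measures). The Gapdh ratio was 1.78 ± 0.644 and 1.15 ± 0.137 (exact permutation p = 0.2), and hybridisation controls averaged 9.45 ± 0.310 and 8.93 ± 0.115 on the log2 scale (exact permutation p = 0.1, adjusted 0.15). The part of RNA quality in the differences below was not tested beyond a fit with these 3′/5′ ratios as a covariate.

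GM4 and GM DC differed in 1736 of 12422 probe sets, 14.0%: 852 (6.86%) were higher and 884 (7.12%) lower in GM4 DC. Counted by gene, with the probe set of highest mean signal standing for each of 8251 genes, 664 (8.05%) were higher and 673 (8.16%) lower. These shares are the background for the gene lists below. The lists were chosen with earlier results of these data known, so the background describes a list and does not test it. The median difference over all probe sets was -0.06, and median centring of the arrays gave 975 higher and 630 lower calls, quantile normalization 954 and 798. The 3 arrays of one group lay apart from the 3 of the other for 14.1% of genes upward and 20.4% downward. Changes over 2-fold were 326 higher and 261 lower, and over 4-fold 37 and 14. A fit with the RNA quality covariate called 964 probe sets, and 734 of these belonged to the 1736. The count of 1736 was 1143 with only the 2 groups compared, 1114 without GM 0 h replicate 2 and 1148 without GM4 0 h replicate 1. Settings joined by "and" in such sentences were each applied alone, and GM 2 stands for GM replicate 2 left out. The same direction was called in all of 15 alternative fits, other than a filter on signal, for 585 probe sets. Genes named below as higher or lower held their call in those 15 fits unless a loss is given.

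**Figure D1:**
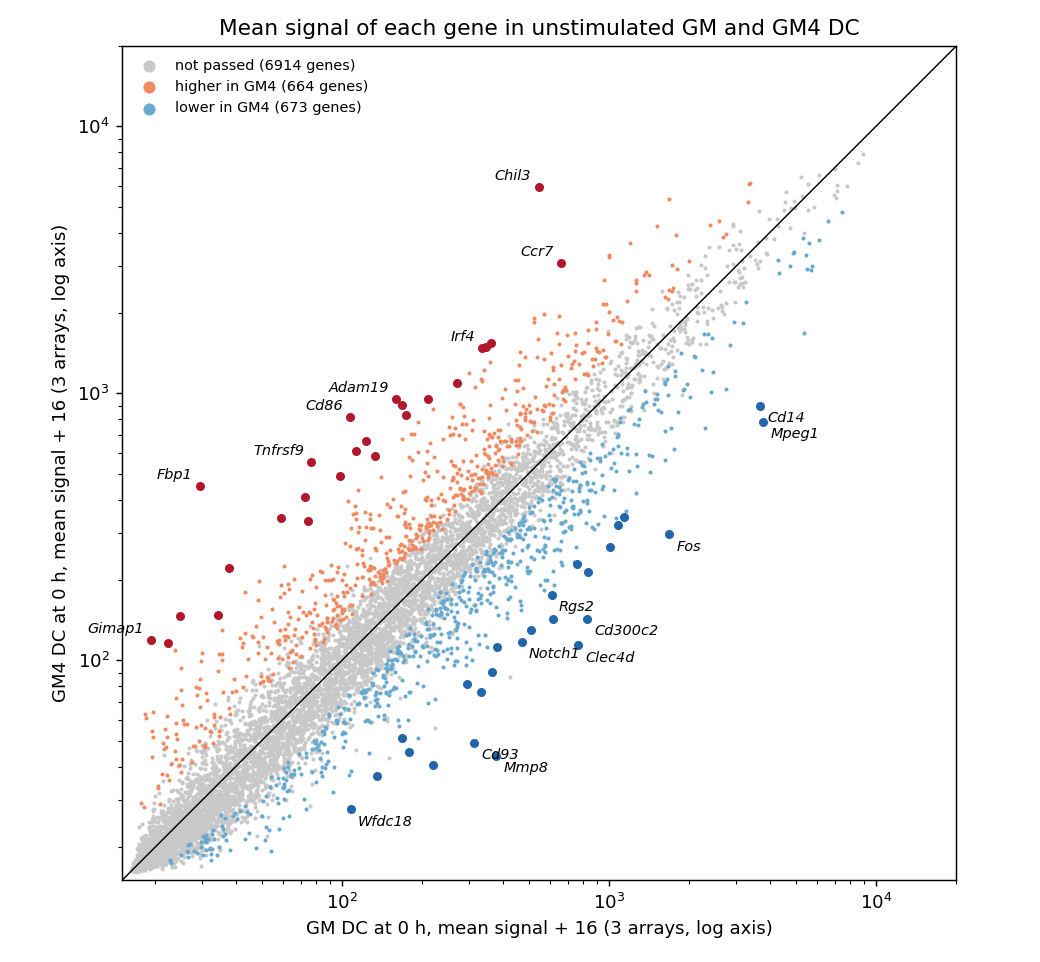
Mean signal plus 16 of each of 8251 genes on 3 GM arrays (x, log axis) and 3 GM4 arrays (y, log axis) at 0 h; orange and light blue points are the 664 genes called higher and the 673 called lower, dark red and dark blue points the 50 genes with the largest differences, and the line marks equal signal. The calls spread over the range of signal, with Chil3 and Ccr7 furthest above the line at high signal and Cd14 and Mpeg1 furthest below it.

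The largest increases included enzymes, costimulatory receptors and transcription factors. Fbp1, fructose-1,6-bisphosphatase of gluconeogenesis, had signals of 7.67, 15.2 and 17.3 in GM DC against 739, 343 and 218 in GM4 DC. The 3 GM arrays read near or below 16, the value added before taking log2, and all 3 GM4 arrays were clear of them. The log2 difference was 3.78 ± 0.41 (limma adjusted p = 4.34e-05). Chil3, a secreted chitinase-like protein and a classic IL-4 target of mouse macrophages, read 617, 514 and 454 in GM DC against 6238, 5666 and 5841 in GM4 DC. Its groups did not overlap and its replicates at 0 h were tight (log2 difference 3.46 ± 0.16, limma adjusted p = 5e-08). Adam19, a membrane metalloprotease, read 161, 95.0 and 174 in GM DC against 1008, 859 and 943 in GM4 DC, again with no overlap and a log2 difference of 2.61 ± 0.27. Vdr, the nuclear receptor of vitamin D, read 97.6, 79.4 and 143 in GM DC against 666, 691 and 579.5 in GM4 DC, a log2 difference of 2.46 ± 0.29 with the groups apart. The other probe set of Vdr was dimmer and not called (0.60, from 42.0 to 71.8, limma adjusted p = 0.283). Other enzymes and carriers among the 25 largest increases were the leukotriene C4 synthase Ltc4s (log2 difference 2.10 ± 0.31), the fatty acid transport protein Slc27a3 (2.54 ± 0.27), the lipid transfer protein Stard10 (2.53 ± 0.22) and the diacylglycerol kinase Dgka (2.32 ± 0.16). Structural and adhesion proteins were represented by Septin4 (2.52 ± 0.22), the focal adhesion protein Tes (2.19 ± 0.17) and the desmosomal plakophilin Pkp3 (2.12 ± 0.20). Gimap1, a GTPase of lymphocytes, differed by 2.60 ± 0.21 and Avpi1 by 2.56 ± 0.22, from GM means of 3.34 and 8.73. At such means below 16 the size of the difference is set largely by the offset of 16, as it is for Fbp1. Ramp3, a partner of calcitonin-type receptors, Sinhcaf, a subunit of a histone deacetylase complex, and Cdkn2b, an inhibitor of the kinases that work with cyclin D, differed by 2.16 ± 0.21, 2.35 ± 0.26 and 2.18 ± 0.19.

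**Figure D2:**
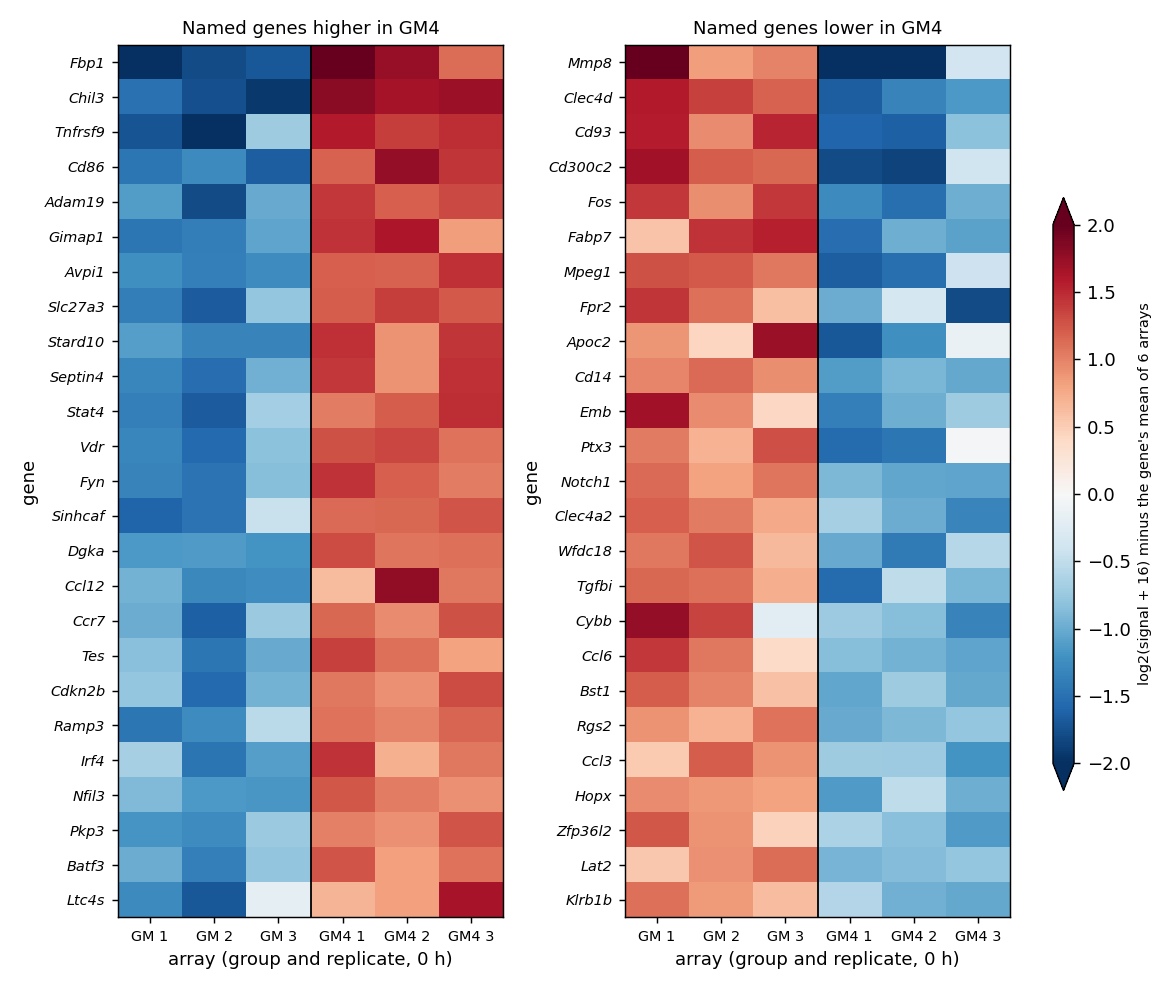
The 25 genes with the largest increases (left) and 25 with the largest decreases (right) among called genes with groups that did not overlap, on the 3 GM and 3 GM4 arrays at 0 h; colour is log2(signal + 16) minus the gene's mean over the 6 arrays. Every gene separates the groups, as the choice of genes requires; Cybb and Mmp8 have the widest range within a group.

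Promoters of the largest increases were searched for the palindromic letters that STAT factors are known to bind, TTC and GAA with any 4 bases between them (the spacing preferred by STAT6) or any 3, on both strands of the 300-base RefSeq window from 250 bases before to 50 after a gene's start. Of the 25 genes 22 had at least 1 window, and 8 of these (36.4%) held a match, against 942 of 6576 genes on the array with a window (14.3%), 80 of 547 genes called higher (14.6%), 81 of 537 called lower (15.1%) and 3 of 20 among the largest decreases (15%). By window, since a gene can have several, the shares were 10 of 33 (30.3%) for the largest increases and 1013 of 8412 (12.0%) for array genes. The letters are short and a match is a description of the sequence, not a bound site. Windows around the match are shown for the 6 genes of largest difference that held one, to show the letters in their context, with the match in capitals, 5′ to 3′ on the gene's strand, in the coordinates of GRCm38.p6.
Chil3, chr3:106167693-106167771, minus strand: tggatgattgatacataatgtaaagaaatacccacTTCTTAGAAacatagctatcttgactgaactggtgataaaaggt
Tnfrsf9, chr4:150927828-150927906, plus strand: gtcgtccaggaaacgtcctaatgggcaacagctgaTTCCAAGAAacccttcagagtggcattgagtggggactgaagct
Adam19, chr11:46054252-46054306, plus strand: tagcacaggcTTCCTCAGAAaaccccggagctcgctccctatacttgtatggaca
Slc27a3, chr3:90389889-90389910, minus strand: gcgcgccacgTTCCCGGGAAga
Septin4, chr11:87566497-87566576, plus strand: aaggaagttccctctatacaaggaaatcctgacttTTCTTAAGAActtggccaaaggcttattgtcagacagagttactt
Vdr, chr15:97908472-97908546, minus strand: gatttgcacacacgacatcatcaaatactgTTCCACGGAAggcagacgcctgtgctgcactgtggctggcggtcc
Some genes have several starts, and the match was in the only window of Chil3, Slc27a3 and Vdr, in 1 of 2 windows of Tnfrsf9, in 1 of 3 of Adam19 and in 3 of 4 of Septin4. Counted from the gene start that the window belongs to, the match began 172 bases upstream for Chil3, 136 for Tnfrsf9, 240 for Adam19, 157 for Septin4 and 220 for Vdr, and in Slc27a3 it lay 39 bases into the transcript. Chil3 and Tnfrsf9 held the shorter spacing and the other 4 the longer one. Sinhcaf and Batf3 also held a match, whereas the windows of Fbp1 and Irf4 did not. The composite of GGAA and GAAA with any 2 bases between them, which IRF4 binds together with PU.1, were in the windows of 1 of the 22 genes, Dgka, and in those of 2.94% of array genes.

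Some genes of IL-4 receptor signalling were called higher, and the calls of Il4ra, Jak1, Jak3 and Tyk2 depended on the fit. For IL-4 and IL-13 receptor signalling 7 of 15 measured genes were called higher and 0 lower, and 8 were not called, with a median log2 difference of 0.50. Jak2, a kinase of the GM-CSF and many other cytokine receptors, read 327, 247 and 371 in GM DC against 1249, 1189 and 914 in GM4 DC. No GM array reached the lowest GM4 array, and the log2 difference was 1.78 ± 0.17 (limma adjusted p = 2.04e-05). Pik3r1, a regulatory subunit of PI3 kinase, differed by 1.57 ± 0.24 on the log2 scale. Il4ra itself, the ligand-binding chain, read 346, 311 and 312 in GM DC against 558, 440 and 813 in GM4 DC. The groups did not overlap, but with a log2 difference of 0.83 ± 0.24 it lost its call in 6 of the 15 alternatives (adjusted p up to 0.242, with the RNA quality covariate). Jak1 (0.50), Jak3 (0.53) and Tyk2 (1.10) were called as well, and each lost the call with the RNA quality covariate, among other settings for Jak1 and Tyk2. Stat6 had a log2 difference of 0.53 ± 0.18 and did not pass (adjusted p = 0.0729). The count of 7 was 3 with the RNA quality covariate and 4 without GM 2 or GM4 1.

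Some negative regulators of cytokine signalling, several of which STAT factors induce and which act back on JAK kinases and receptors, were higher in GM4 DC. Socs2 read 676, 509 and 484 in GM DC against 2555, 1855 and 1473 in GM4 DC, a log2 difference of 1.77 ± 0.18 without overlap. Cish, a target of STAT5, read 278, 212 and 239 in GM DC against 999, 819 and 587 in GM4 DC and differed by 1.63 ± 0.24 on the log2 scale, likewise without overlap. Socs1, an inhibitor of JAK kinases, differed by 1.47 ± 0.20, from 243 ± 60.3 on GM arrays and 689 ± 41.1 on GM4 arrays (SD, n = 3 each). Among feedback regulators 4 of 12 measured genes were called higher and 0 lower, and 8 were not called, among the latter Socs3 at -0.37 ± 0.32 and the phosphatase Ptpn6 at 0.05 ± 0.35.

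On the GM-CSF side, 4 of 16 measured genes were called higher and 2 lower, and 10 were not called. Stat5a was higher by 0.93 ± 0.12 on the log2 scale and Stat5b by 1.61 ± 0.31, the latter from a mean signal of 18.6 to 89.5; its call was lost with the RNA quality covariate. The stem cell factor receptor Kit was higher by 1.43 ± 0.18. Csf1r, the receptor of the macrophage growth factor M-CSF, went the other way and read 2952, 2329 and 1542 in GM DC against 854, 594 and 723 in GM4 DC. All 3 GM4 arrays were below all 3 GM arrays, a log2 difference of -1.60 ± 0.20. The GM-CSF receptor chains Csf2ra (-0.54 ± 0.43), Csf2rb (0.52 ± 0.20) and Csf2rb2 (0.91 ± 0.35) did not pass, and their values overlapped between groups. The count of 4 was 7 with array weights and without GM 1.

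Genes of the IL-4 response and of alternative activation went both ways. In that list 10 of 23 measured genes were called higher and 4 lower, and 9 were not called, with a median log2 difference of 0.26. Arg1, the arginase that marks alternatively activated macrophages, read 889.5, 1137 and 934 in GM DC against 1669, 2122 and 2188 in GM4 DC, a log2 difference of 1.00 ± 0.17 without overlap. The chemokines Ccl17 and Ccl22, ligands of CCR4 that DC secrete, differed by 0.88 ± 0.21 and 0.98 ± 0.26. Ccl17 lost its call in 1 of the 15 alternatives (adjusted p up to 0.0562, without GM4 0 h replicate 1), and Ccl22, whose groups overlapped, lost its call in 5 of the 15 alternatives (adjusted p up to 0.109, with only the 2 groups compared). Alox15, the lipoxygenase that IL-4 induces in human monocytes, read 4.45, 3.56 and 2.22 in GM DC against 60.8, 50.0 and 4.30 in GM4 DC. It was high on 2 of 3 GM4 arrays only, and it lost its call in 6 of the 15 alternatives (adjusted p up to 0.423, with the RNA quality covariate). Other genes tied to alternative activation were lower: the mannose receptor Mrc1 read 884, 833 and 749 in GM DC against 334, 386 and 316 in GM4 DC, a log2 difference of -1.22 ± 0.21. Stab1, a scavenger receptor, differed by -1.50 ± 0.20 and the transcription factor Klf4 by -1.55 ± 0.18, both also below every GM array on all 3 GM4 arrays. The count of 10 was 6 without GM4 1.

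**Figure D3:**
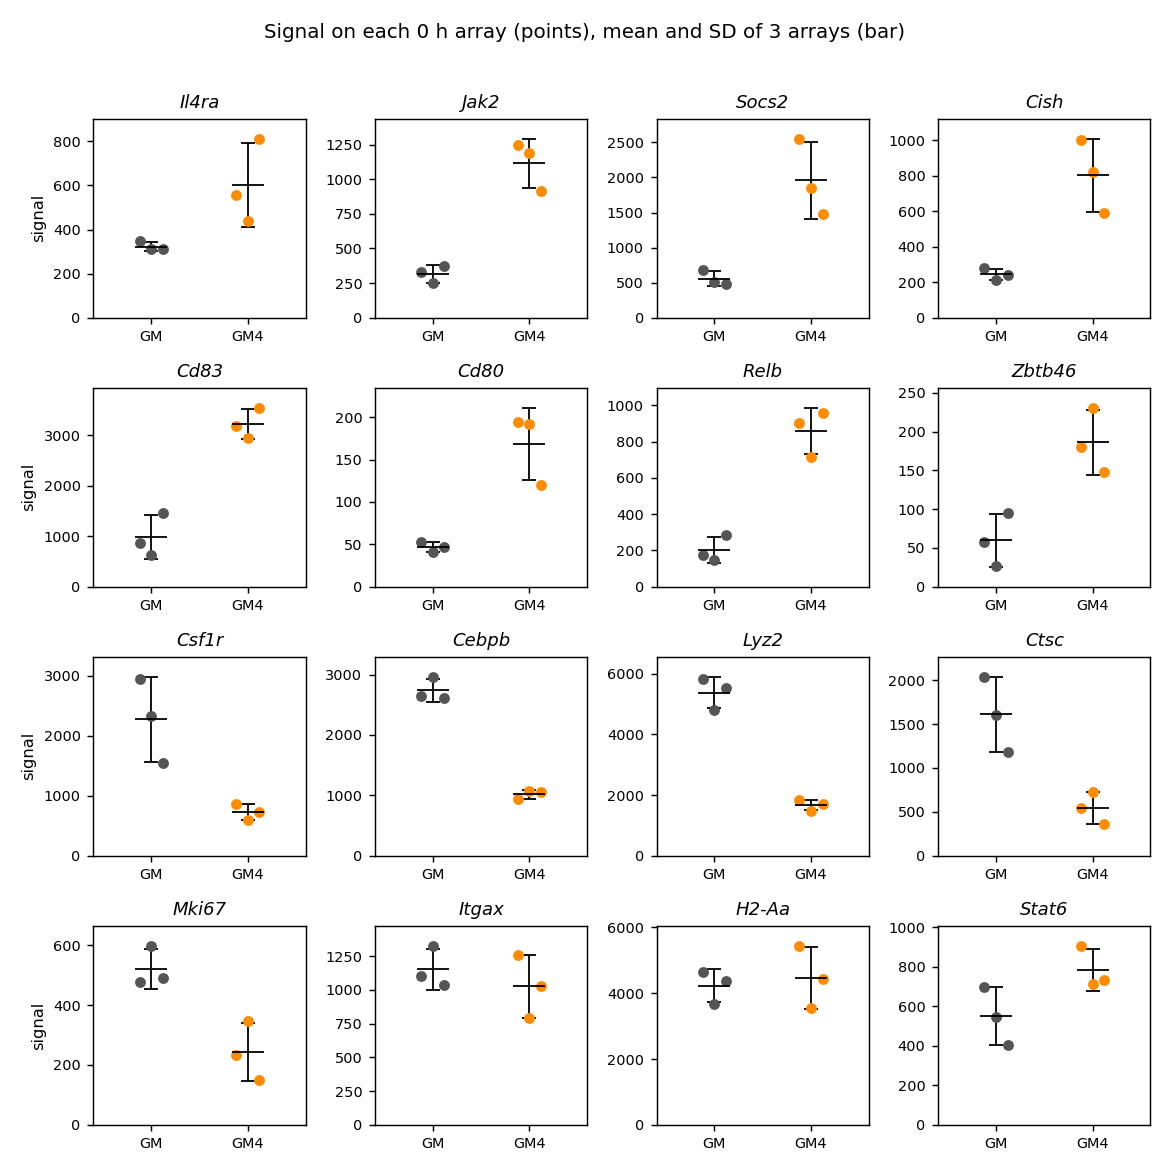
Signal of 16 genes on each array at 0 h (points; linear axis from 0), with the mean and SD of 3 GM and 3 GM4 arrays (bars). Il4ra, Jak2, Socs2, Cish, Cd83, Cd80, Relb and Zbtb46 lie higher in GM4 DC and Csf1r, Cebpb, Lyz2, Ctsc and Mki67 lower, without overlap; Itgax and H2-Aa overlap, and Stat6 did not pass.

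Most costimulatory and maturation molecules of the list were higher in GM4 DC before any stimulus. Among surface molecules of the B7 family, CD40 and DC maturation, 10 of 14 measured genes were called higher and 2 lower, and 2 were not called, and the median log2 difference was 1.26, against -0.06 over all genes; the share of higher genes over the array was 8.05%. Cd86, a B7 ligand of CD28 on T cells, read 92.0, 106 and 76.9 in GM DC against 646, 972 and 776 in GM4 DC. Even the lowest GM4 array was well clear of the highest GM array, and the log2 difference was 2.91 ± 0.24 (limma adjusted p = 1.09e-05). Cd80, the other B7 ligand, read 53.2, 41.4 and 46.8 in GM DC against 194, 192 and 119.5 in GM4 DC, a log2 difference of 1.52 ± 0.26 without overlap, whose call was lost with the RNA quality covariate. Cd40, the receptor by which T cells license DC, read 72.8, 68.5 and 77.6 in GM DC against 170.1, 180 and 202 in GM4 DC and differed by 1.17 ± 0.11. Cd83, a marker of mature DC, read 860, 627 and 1467 in GM DC against 3187, 2934 and 3542 in GM4 DC, a difference of 1.78 ± 0.26 with the groups apart. Ccr7, which guides DC to lymph nodes, read 685, 435 and 820 in GM DC against 3095, 2671 and 3382 in GM4 DC. It differed by 2.25 ± 0.23 on the log2 scale, and GM replicate 3 was the highest of its group here as for Cd83. Cd200 (1.77 ± 0.24), Icam1 (1.53 ± 0.23), Cd48 (1.34 ± 0.15) and the actin bundler Fscn1 (1.18 ± 0.24) were higher as well. Lower were Cd1d1 (-1.06 ± 0.18), which presents lipids to NKT cells, and the tetraspanin Cd9 (-0.74 ± 0.11).

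Receptors and ligands of the TNF superfamily went both ways. In that list 8 of 26 measured genes were called higher and 7 lower, and 11 were not called. Tnfrsf9 (4-1BB), a costimulatory receptor, read 44.0, 33.0 and 105 in GM DC against 578, 497 and 536 in GM4 DC, a log2 difference of 2.96 ± 0.27 without overlap. Tnfsf4 (OX40 ligand), a T cell costimulator, read 118, 80.6 and 173 in GM DC against 382, 518 and 509 in GM4 DC and differed by 1.84 ± 0.24. The adaptor Traf1 differed by 1.76 ± 0.20, the death receptor Fas by 1.07 ± 0.16 and Traf6 by 0.83 ± 0.12. The TNF receptors Tnfrsf1b (-0.78) and Tnfrsf1a (-0.66) and the lymphotoxin receptor Ltbr (-0.51) were called lower, but each lost the call in at least 1 alternative, and the death receptor Tnfrsf21 was lower at -1.28 ± 0.16. The count of 7 was 3 with the RNA quality covariate, with only the 2 groups compared and without GM 2 and 4 with median centring and without GM 1, GM4 1 or GM4 2.

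Components of the NF-kappaB pathway, which drives DC maturation, were higher in part. Of these, 9 of 16 measured genes were called higher and 0 lower, and 7 were not called, with a median log2 difference of 0.57 and a background of 8.05% higher. Relb, the subunit needed for maturation of some DC, read 173, 149 and 285 in GM DC against 902, 717 and 961 in GM4 DC. The groups were apart, and the log2 difference was 2.04 ± 0.23 (limma adjusted p = 5.1e-05). Its other probe set was dimmer and not called (0.92, from 21.8 to 54.9, limma adjusted p = 0.0735). Nfkb2, the partner of Relb, read 244, 228 and 326 in GM DC against 743, 653 and 859.6 in GM4 DC and differed by 1.45 ± 0.15. The inhibitors Nfkbib and Nfkbia, the latter a target of the pathway, differed by 1.48 ± 0.17 and 1.04 ± 0.16, and the ubiquitin ligase Birc2 by 1.25 ± 0.17. The other probe set of Nfkbia was not called (0.29, from 976 to 1164, limma adjusted p = 0.401). Rel (0.42 ± 0.16) and the kinase Ikbkb (0.42 ± 0.21) did not pass. The count of 9 was 5 with the RNA quality covariate.

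Several transcription factors known from DC were higher and several known from monocytes and granulocytes lower. Among the myeloid and DC lineage factors 10 of 27 measured genes were called higher and 7 lower, and 10 were not called. Irf4, required for some conventional DC and for IL-4 responses, read 418, 234 and 303 in GM DC against 1847, 1112 and 1416 in GM4 DC, a log2 difference of 2.15 ± 0.25 without overlap. Batf3, needed for cross-presenting DC, read 354, 269.8 and 409 in GM DC against 1744, 1286 and 1559 in GM4 DC and differed by 2.11 ± 0.18. Zbtb46, a factor restricted to conventional DC among myeloid cells, read 57.9, 26.8 and 94.6 in GM DC against 179.8, 231 and 148 in GM4 DC, a difference of 1.50 ± 0.29 with the groups apart. Stat4, the transducer of IL-12, differed by 2.48 ± 0.24 and Nfil3, a factor of several innate lineages, by 2.12 ± 0.28. Irf8, which directs DC and monocyte development, read 631, 578 and 932 in GM DC against 1022, 1077 and 1726 in GM4 DC. Its groups did not overlap, but at 0.81 ± 0.21 it lost its call in 4 of the 15 alternatives (adjusted p up to 0.0892, without GM 0 h replicate 2). The C/EBP factors of granulocytes and macrophages were lower as a family of 3: Cebpa read 1135, 1350 and 1264 in GM DC against 603, 526 and 604 in GM4 DC, a log2 difference of -1.09 ± 0.12. Cebpb read 2644, 2962 and 2608 in GM DC against 936, 1068 and 1054 in GM4 DC, a difference of -1.41 ± 0.16, and Cebpd differed by -1.45 ± 0.21. Nr1h3, the oxysterol receptor LXRα, differed by -0.85 ± 0.14, whereas Spi1, which encodes the myeloid factor PU.1, did not pass (-0.20 ± 0.14). The count of 7 was 4 with the RNA quality covariate.

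Immediate early genes, which cells switch on within minutes of many signals and of handling, were mostly lower where called. Among them 1 of 26 measured genes was called higher and 7 lower, and 18 were not called. Fos read 1844, 1319 and 1839 in GM DC against 273, 231 and 338 in GM4 DC, a log2 difference of -2.50 ± 0.24 with every GM4 array below every GM array. Ier2 differed by -0.98 ± 0.15, and the 1 higher gene was the RNA-binding protein Zfp36l1 (0.73 ± 0.19), which lost its call in 4 of the 15 alternatives (adjusted p up to 0.103, with the RNA quality covariate). Jun (0.28 ± 0.24), Junb (0.22 ± 0.17) and Atf3 (0.34 ± 0.18) did not pass. The count of 7 was 3 with the RNA quality covariate and 4 without GM 3.

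Chemokines went both ways. In that list 8 of 25 measured genes were called higher and 6 lower, and 11 were not called. Ccl5, a chemokine that attracts T cells, read 1296, 735 and 2939 in GM DC against 5384, 4285 and 6273 in GM4 DC, a log2 difference of 1.88 ± 0.36 without overlap. Cx3cl1, the membrane-bound chemokine fractalkine, read 296, 209 and 395 in GM DC against 1002, 838 and 1292 in GM4 DC and differed by 1.77 ± 0.23. Ccl12, a ligand of CCR2, differed by 2.31 ± 0.30 from a GM mean of 6.33, a low signal where the offset of 16 limits the size. Lower in GM4 DC were Ccl3, an inflammatory chemokine that read 274, 452 and 364 in GM DC against 108, 107 and 72.9 in GM4 DC (-1.75 ± 0.25 on the log2 scale), and Ccl4, its close relative (-1.04 ± 0.18). Ccl6 read 1083, 842 and 520.3 in GM DC against 213, 199.8 and 183 in GM4 DC, a difference of -1.89 ± 0.28, and Cxcl14 differed by -1.61 ± 0.17. The count of 8 was 5 with only the 2 groups compared and without GM 1, GM 2 or GM4 3. Of the receptors for chemoattractants 2 of 22 measured genes were called higher and 3 lower, and 17 were not called: Ccr7 was higher as given above, and Ccr6, which was called with 1.85 ± 0.56, lost its call in 7 of the 15 alternatives (adjusted p up to 0.163, without GM 0 h replicate 2). Ccr2, the receptor of inflammatory monocytes, read 766, 766 and 586 in GM DC against 427, 289.5 and 169.9 in GM4 DC, a log2 difference of -1.29 ± 0.24 without overlap. The anaphylatoxin receptor C3ar1 (-1.18 ± 0.20) and the formyl peptide receptor Fpr2 (-2.09 ± 0.28) were lower too.

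Cytokine genes went both ways. Among cytokines and their antagonists 3 of 25 measured genes (12%) were called higher and 5 (20%) lower, and 17 were not called. The array as a whole had 8.05% of genes higher and 8.16% lower. Il6 was higher at 38.9, 29.2 and 29.8 in GM DC against 130.2, 196 and 133 in GM4 DC, a log2 difference of 1.78 ± 0.26 without overlap. Il1rn, the secreted antagonist of the IL-1 receptor, read 1771, 1844 and 1610 in GM DC against 536, 636 and 634 in GM4 DC and was lower at -1.51 ± 0.15. Il1b (-0.90 ± 0.25) and Tnf (-1.25 ± 0.29) were called lower as well. Il1b lost its call in 4 of the 15 alternatives (adjusted p up to 0.104, without GM4 0 h replicate 1), and Tnf lost its call in 3 of the 15 alternatives (adjusted p up to 0.107, with the RNA quality covariate). The IL-12 subunits Il12a (-0.05 ± 0.21) and Il12b (0.71 ± 0.31) and Il10 (-0.10 ± 0.19) did not pass. The count of 5 was 1 with only the 2 groups compared, 3 with the RNA quality covariate and without GM4 1 and 8 with array weights.

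Many uptake receptors were lower in GM4 DC. Among endocytic lectins and scavenger receptors 2 of 22 measured genes were called higher and 12 lower, and 8 were not called, with a median log2 difference of -0.74, against 8.16% lower and a median of -0.06 over all genes. Clec4d, a C-type lectin that signals through the Fc receptor γ chain, read 859, 735 and 649.5 in GM DC against 77.7, 99.2 and 116 in GM4 DC. The GM4 arrays were far below the GM arrays, a log2 difference of -2.76 ± 0.19 (limma adjusted p = 3.21e-06). Msr1, the class A scavenger receptor, read 484, 412 and 465 in GM DC against 92.2, 150.3 and 173 in GM4 DC and differed by -1.64 ± 0.17 without overlap. Lrp1, a receptor for lipoproteins and many other ligands, differed by -1.32 ± 0.15, Clec4a2, an inhibitory lectin, by -1.99 ± 0.20 and Cd93 by -2.69 ± 0.27. Higher were the galectin Lgals1, at 0.44 ± 0.12, which lost its call in 5 of the 15 alternatives (adjusted p up to 0.246, with the RNA quality covariate), and Ly75 (DEC-205), an endocytic receptor of DC, which read 238, 194 and 369 in GM DC against 1073, 826 and 727 in GM4 DC. It was higher by 1.68 ± 0.23, with every GM4 array above every GM array.

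The lists of Fc receptors, pattern recognition and complement genes had no member that was called higher, where 8.05% of all genes were. In lists this small a count of 0 is near that share. Over all genes 8.16% were called lower. Of 24 pattern recognition genes listed 8 were measured, and Tlr6 and Tlr7 were the only Toll-like receptors among these. For Fc receptors and their chains 0 of 12 measured genes were called higher and 5 lower, and 7 were not called. Fcer1g, the γ chain that several Fc receptors and lectins share, read 274, 347 and 207 in GM DC against 76.0, 122 and 105 in GM4 DC, a log2 difference of -1.31 ± 0.23 without overlap. The high-affinity IgG receptor Fcgr1 differed by -1.06 ± 0.24 and the adaptor Tyrobp by -0.87 ± 0.17. The other probe set of Fcgr1 was not called (-0.69, from 311 to 178.3, limma adjusted p = 0.116). The count of 5 was 3 without GM 1, GM 2, GM4 1 or GM4 3. Of the pattern recognition genes 0 of 8 measured genes were called higher and 3 lower, and 5 were not called, and Cd14, the LPS coreceptor, read 3560, 3957 and 3457 in GM DC against 825, 949.7 and 876 in GM4 DC. Its GM4 arrays were tight and below all GM arrays, a difference of -2.03 ± 0.17. Tlr6 differed by -0.84 ± 0.18. Of complement genes 0 of 14 measured genes were called higher and 4 lower, and 10 were not called, among the lower ones C1ra (-1.39 ± 0.20). The count of 4 was 2 with quantile normalization and without GM 2 or GM4 1.

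Genes of MHC presentation differed in part. In the MHC class II list 2 of 16 measured genes (12.5%) were called higher and 3 (18.75%) lower, and 11 were not called. Of all genes 8.05% were higher and 8.16% lower. The 5 called genes were the proteases Ctsl (-1.16) and Ctss (-0.49), the thiol reductase Ifi30 (0.79) and the chains H2-DMa (-0.76) and H2-Oa (0.61). Each of these lost the call in at least 1 alternative. H2-Aa read 4656, 3671 and 4366 in GM DC against 5439, 3549 and 4435 in GM4 DC, with overlapping groups and a log2 difference of 0.07 ± 0.22. Cd74, the invariant chain, differed by 0.11 ± 0.20 and H2-Ab1 by 0.62 ± 0.34, and neither passed. In the class I list 3 of 15 measured genes were called higher and 0 lower, and 12 were not called. The 3 higher genes were the immunoproteasome subunits Psmb8 (1.05 ± 0.12) and Psmb9 (0.95 ± 0.12) and the proteasome activator Psme1, which read 509, 576 and 575 in GM DC against 1406, 1182 and 1412 in GM4 DC, a difference of 1.24 ± 0.13 without overlap.

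Many lysosomal genes were lower on GM4 arrays. In that list 0 of 29 measured genes were called higher and 19 lower, and 10 were not called, and the median log2 difference was -0.56, where 8.16% of all genes were lower. These counts use the probe set of highest mean signal for each gene. The other probe set of the cystatin Cst3 was called higher (1.61, from 698 to 2124, limma adjusted p = 0.000208). Ctsc, a protease that activates granule serine proteases, read 2038, 1608 and 1182 in GM DC against 539.5, 727 and 366 in GM4 DC, a log2 difference of -1.55 ± 0.23 without overlap. Hexa, a subunit of β-hexosaminidase, read 1675, 1657 and 1495 in GM DC against 679.8, 595 and 849.7 in GM4 DC and differed by -1.18 ± 0.12. The carboxypeptidase Ctsa differed by -1.20 ± 0.17, the peptidase Tpp1 by -0.78 ± 0.16 and the membrane protein Lamp2 by -0.64 ± 0.11. The other probe set of Lamp2 was not called (-0.36, from 535 to 419, limma adjusted p = 0.133). Ctsd, a major aspartic protease of lysosomes, differed by -0.93 ± 0.15 and lost its call with the RNA quality covariate. The count of 19 was 8 with the RNA quality covariate, 9 without GM 2, 10 with only the 2 groups compared and without GM4 2, 11 without GM4 1 and 12 with median centring.

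Host defence enzymes of phagocytes included large decreases. In the list of NADPH oxidase, nitric oxide and host defence enzymes 2 of 16 measured genes (12.5%) were called higher and 3 (18.75%) lower. The other 11 were not called, and of all genes 8.05% were higher and 8.16% lower. Lyz2, the lysozyme of myeloid cells, read 5807, 4803 and 5522 in GM DC against 1824, 1479 and 1703 in GM4 DC, a log2 difference of -1.68 ± 0.17 without overlap. Mpeg1, a pore-forming protein of phagocytes, differed by -2.38 ± 0.24. Cybb, the catalytic subunit of the phagocyte oxidase, read 479, 354 and 110.1 in GM DC against 72.4, 65.2 and 41.8 in GM4 DC. It differed by -1.93 ± 0.44, and the GM arrays were spread over a range as wide as the difference from the highest GM4 array. Nos2 did not pass (0.01 ± 0.28).

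Some adhesion and matrix genes differed. In the adhesion list 12% of genes were called higher and 16% lower, against 8.05% and 8.16% of all genes. Of integrins, selectins and adhesion molecules 3 of 25 measured genes were called higher and 4 lower, and 18 were not called; the β2 integrin chain Itgb2 of leukocytes read 1698, 1537 and 945 in GM DC against 636, 477 and 596 in GM4 DC, a log2 difference of -1.23 ± 0.20, and Alcam differed by -1.23 ± 0.14. Among matrix metalloproteinases, inhibitors and matrix genes 3 of 28 measured genes were called higher and 8 lower, and 17 were not called. Mmp8, a collagenase of neutrophils, read 712, 176 and 198 in GM DC against 8.12, 9.48 and 66.1 in GM4 DC. GM replicate 1 was far above the other GM arrays, and the difference of -3.07 ± 0.50 has the largest standard error of the genes named by size. Plaur, the urokinase receptor, read 1017, 1047 and 1066 in GM DC against 371, 343 and 265 in GM4 DC and differed by -1.64 ± 0.24. Tgfbi (-1.98 ± 0.29) and fibronectin, Fn1 (-1.28 ± 0.18), were lower, whereas Serpinb9, an inhibitor of granzyme B, read 828, 606 and 1509 in GM DC against 3141, 2917 and 3750 in GM4 DC and was higher by 1.82 ± 0.25. The count of 8 was 5 with the RNA quality covariate, with only the 2 groups compared and without GM 2. Among S100, annexin and actin regulators 4 of 28 measured genes were called higher and 1 lower, and 23 were not called, with Marcks (1.67 ± 0.23) and Marcksl1 (1.18 ± 0.18) higher and Anxa1, an anti-inflammatory annexin, lower (-0.91 ± 0.12). The count of 4 was 7 with array weights.

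Metabolic genes were called in varying shares. Of glycolysis and gluconeogenesis genes 2 of 27 measured genes were called higher and 3 lower, and 22 were not called: besides Fbp1, the muscle-type enolase Eno3 read 106, 89.3 and 101 in GM DC against 425, 426 and 406 in GM4 DC, a log2 difference of 1.93 ± 0.16 with tight groups that did not overlap. In sterol and fatty acid synthesis 1 of 23 measured genes was called higher and 6 lower, and 16 were not called, with Mvd of the mevalonate pathway lower at -1.04 ± 0.23 and the desaturase Fads1 at -0.80 ± 0.15. Of the other lower genes Hmgcs1, Fdft1 and Cyp51 each lost the call in at least 1 alternative. For lipid transport, storage and oxidation 2 of 26 measured genes were called higher and 8 lower, and 16 were not called. The fatty acid-binding protein Fabp5 read 503, 400.3 and 433 in GM DC against 1432, 1135 and 1208 in GM4 DC and was higher by 1.46 ± 0.14, while its relative Fabp7 read 119.9, 234 and 254 in GM DC against 15.8, 30.4 and 27.7 in GM4 DC. Fabp7 was lower at -2.38 ± 0.38 with no overlap and lost its call in 1 of the 15 alternatives (adjusted p up to 0.0516, with the RNA quality covariate), as did Apoc2, an activator of lipoprotein lipase (-2.03 ± 0.41, adjusted p 0.235 with that covariate). The count of 8 was 1 with the RNA quality covariate and 5 without GM 1 or GM4 1. Of antioxidant, iron and metallothionein genes 2 of 32 measured genes were called higher and 9 lower, and 21 were not called, with haptoglobin, Hp, lower at -1.43 ± 0.20, the glutathione transferase Mgst1 at -1.14 ± 0.18 and the mitochondrial superoxide dismutase Sod2 at -1.09 ± 0.15. The count of 9 was 3 with the RNA quality covariate and 5 with only the 2 groups compared and without GM4 1 or GM4 2. In eicosanoid synthesis and reception 3 of 18 measured genes were called higher and 2 lower, and 13 were not called, with Ltc4s at 194, 140.5 and 428 in GM DC against 793, 875 and 1570 in GM4 DC. Its groups were apart, and the prostaglandin E2 receptor Ptger4 was higher by 1.24 ± 0.23. Of arginine, tryptophan and polyamine genes 2 of 15 measured genes were called higher and 0 lower, and 13 were not called. For the respiratory chain 3 of 50 measured genes were called higher and 0 lower, and 47 were not called, with a median log2 difference of 0.02, below the background of 8.05% and 8.16% on both sides. The 3 called genes, Atp5e, Ndufa6 and Ndufa7, lost the call in 7, 6 and 7 of the 15 alternatives, and the count was 0 without GM 2, GM 3 or GM4 1.

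Some proliferation genes were lower. In the list of DNA replication and mitosis 1 of 46 measured genes was called higher and 10 lower, and 35 were not called, and the median log2 difference was -0.51. The proliferation marker Mki67 read 476, 598 and 491 in GM DC against 233, 346 and 152 in GM4 DC. Its groups did not overlap, but with -1.11 ± 0.28 it lost its call in 3 of the 15 alternatives (adjusted p up to 0.0805, with the RNA quality covariate). Kif20a, a mitotic kinesin, read 474, 506 and 459 in GM DC against 259, 195 and 136 in GM4 DC, a difference of -1.26 ± 0.29 that was not called with the RNA quality covariate. The cyclin Ccnd2 was higher by 1.12 ± 0.23. The count of 10 was 3 with the RNA quality covariate and without GM 2 or GM4 3, 4 without GM 3, 5 with median centring and without GM4 1, 6 with offset 1 and 16 with offset 64. Of BCL-2 family and caspase genes 3 of 24 measured genes were called higher and 1 lower, and 20 were not called, with the stress gene Gadd45b higher by 1.82 ± 0.27. Of endoplasmic reticulum folding genes 3 of 24 measured genes were called higher and 0 lower, and 21 were not called, and each of these 3, Xbp1 (0.61), Edem1 (0.61) and Sec61b (0.97), lost its call in at least 1 alternative.

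Kinases and regulators of G proteins changed in both directions. In that list 7 of 53 measured genes (13.2%) were called higher and 9 (17.0%) lower, and 37 were not called. The shares over all genes were 8.05% and 8.16%. Fyn, a Src-family kinase best known from T cells, read 86.6, 77.1 and 128 in GM DC against 686, 576 and 511 in GM4 DC, a log2 difference of 2.44 ± 0.23 without overlap. Pkib, an inhibitor of protein kinase A, read 423, 403 and 696 in GM DC against 1922, 2040 and 1742 in GM4 DC and differed by 1.91 ± 0.24. Rgs2, which shortens signals of Gq-coupled receptors, read 594, 514 and 673 in GM DC against 147, 158 and 174 in GM4 DC. It was lower at -1.79 ± 0.18, with the GM4 arrays tight and below all GM arrays. Rgs14 (-1.12 ± 0.21) and the protein kinase C isoform Prkcb (-1.05 ± 0.17) were lower too. Further receptors and regulators among the 25 largest decreases were Cd300c2 of the CD300 family (-2.69 ± 0.30), Notch1 (-2.00 ± 0.14), the adhesion glycoprotein Emb (-2.03 ± 0.29), Bst1 (-1.86 ± 0.19), the adaptor Lat2 (-1.71 ± 0.18), the lectin-like receptor Klrb1b (-1.71 ± 0.24), the homeodomain protein Hopx (-1.75 ± 0.16), the RNA-binding protein Zfp36l2 (-1.73 ± 0.20) and Wfdc18 (-1.98 ± 0.41), which lost its call in 1 of the 15 alternatives (adjusted p = 0.0600 with the RNA quality covariate). Ptx3, a secreted pattern recognition molecule, differed by -2.02 ± 0.30, with GM4 replicate 3 above the other GM4 arrays.

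Interferon genes went both ways. In the type I list 12% of genes were called higher and 16% lower, against 8.05% and 8.16% of all genes. Of type I interferon-stimulated genes 3 of 25 measured genes were called higher and 4 lower, and 18 were not called, with Usp18, a brake on interferon signalling, higher by 1.18 ± 0.14 and Ifi204 and Ly6e lower at -1.22 ± 0.13 and -0.99 ± 0.15. Among GTPases and regulators induced by interferon-γ 5 of 17 measured genes were called higher and 1 lower, and 11 were not called. Gbp2, a guanylate-binding protein, read 380.4, 311 and 331 in GM DC against 859.6, 918 and 892 in GM4 DC, a log2 difference of 1.35 ± 0.12 without overlap. In the list of LPS and interferon-γ response genes 5 of 22 measured genes were called higher and 7 lower, and 10 were not called. Ccl5, Il6 and Gbp2 were on its higher side and Ptx3, Ccl3 and Ccl4 on its lower side. The count of 7 was 3 with only the 2 groups compared and 4 with the RNA quality covariate.

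**Figure D4:**
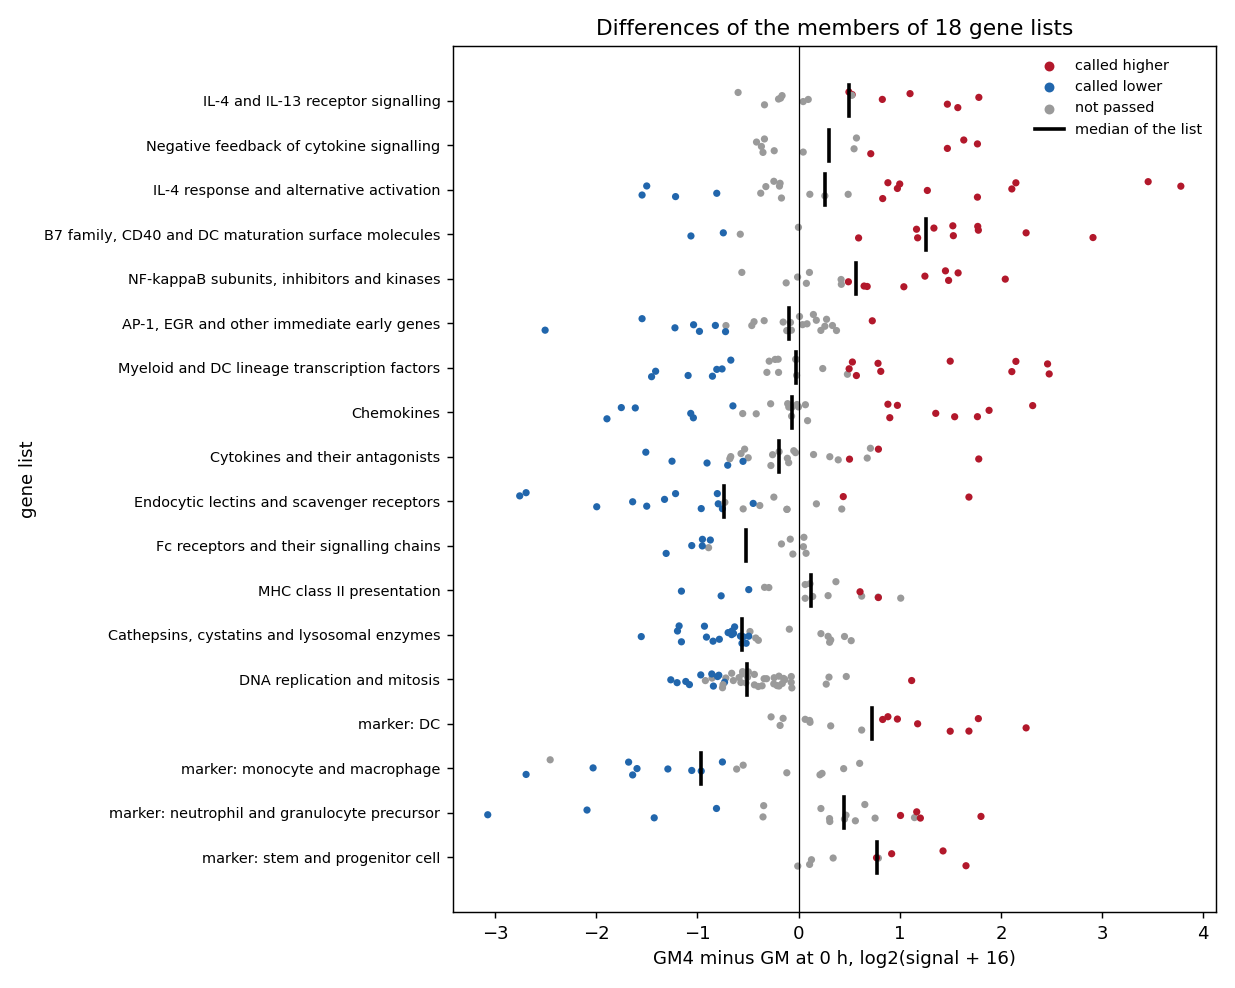
Log2 difference, GM4 minus GM at 0 h, of each measured member of 18 gene lists (points; red called higher, blue called lower, grey not passed), with the list's median (bar). B7 and NF-kappaB members lie mostly right of 0, lectins, lysosomal enzymes and monocyte and macrophage markers mostly left, and chemokines and lineage factors on both sides.

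The cell type labels were set against defining markers. Of DC markers 8 of 16 measured genes were called higher and 0 lower, and 8 were not called; Itgax, the CD11c chain, read 1100, 1326 and 1034 in GM DC against 1255, 792 and 1032 in GM4 DC, with overlapping groups (-0.18 ± 0.17), Flt3 did not pass (0.11 ± 0.18) although its other probe set was called lower (-0.84, from 192 to 101.0, adjusted p = 0.00241), and Ly75 was higher as given above. The count of 8 was 5 without GM4 1. For markers of monocytes and macrophages 0 of 17 measured genes were called higher and 9 lower, and 8 were not called, with a median log2 difference of -0.96 and a summed signal of 14878 to 17252 on GM arrays and 5066 to 6012 on GM4 arrays. Csf1r, Cd14 and Lyz2 were measured on every GM4 array, at 594, 825 and 1479 at the least, and Adgre1 (F4/80) did not pass (-0.61 ± 0.24). Neutrophil markers were present in both groups: 4 of 19 measured genes were called higher and 4 lower, and 11 were not called, and their summed signal was 10851 to 11673 on GM arrays and 10654 to 16712 on GM4 arrays. S100a8 read 3129, 2977 and 2612 in GM DC against 4287, 4802 and 3822 in GM4 DC, a log2 difference of 0.56 ± 0.20 that did not pass, Ngp differed by 0.45 ± 0.26 and Camp by -0.34 ± 0.26. Ltf (1.01 ± 0.29) and Lcn2 (1.80 ± 0.30) were called higher and lost the call with the RNA quality covariate. The other probe set of Lcn2 was called the other way, at -0.57. Ly6g and Pglyrp1 were the remaining higher genes and also lost the call with that covariate, and S100a9 was not called. The lower genes were Mmp8 (-3.07 ± 0.50), Fpr2 (-2.09 ± 0.28), Hp and Csf3r. Of these, Csf3r lost its call in 9 alternatives and the others held theirs. The count of 4 higher genes was 0 with the RNA quality covariate and 2 with only the 2 groups compared and without GM 2. It was 8 with the signal filter and with array weights.

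Markers of further cell types were measured as well. For plasmacytoid DC 4 of 10 measured genes were called higher and 1 lower, and 5 were not called, with the transcription factor Spib at 23.2, 23.4 and 52.3 in GM DC against 182, 217 and 149.9 in GM4 DC (2.06 ± 0.26) and the adaptor Blnk higher by 1.37 ± 0.24; both also belong to B cells, of whose markers 1 of 14 measured genes was called higher and 1 lower, and 12 were not called, with a summed signal of 378 to 468 on GM arrays and 374 to 492 on GM4 arrays. The count of 4 was 2 with the RNA quality covariate. Spib had another probe set that was not called (0.22, from 32.6 to 40.4, limma adjusted p = 0.664). Stem and progenitor markers were higher where called: 4 of 9 measured genes were called higher and 0 lower, and 5 were not called, with Myb at 40.7, 43.0 and 45.3 in GM DC against 196, 211 and 117 in GM4 DC, a difference of 1.66 ± 0.23 without overlap. Stromal genes were called lower for 6 of 16 and higher for 1, Thy1, with a summed signal of 1050 to 2848 on GM arrays and 699 to 1249 on GM4 arrays. Col1a1 read 146, 223 and 609 in GM DC against 69.2, 103 and 153 in GM4 DC, with overlapping groups, and it lost its call in 10 of the 15 alternatives (adjusted p up to 0.914, with the RNA quality covariate). The count of 6 was 0 with the RNA quality covariate, 2 with only the 2 groups compared and without GM 2, GM4 1 or GM4 2 and 3 with quantile normalization, with median centring and without GM 3. For T and NK cells 3 of 17 measured genes were called higher and 1 lower, and 13 were not called, for mast cells, basophils and eosinophils 2 of 18 measured genes were called higher and 1 lower, and 15 were not called, and for erythroid cells and megakaryocytes 1 of 11 measured genes was called higher and 1 lower, and 9 were not called. The summed signal of T and NK cell markers was 159.6 to 243 on GM arrays and 247 to 352 on GM4 arrays, that of mast cell, basophil and eosinophil markers 280.1 to 369 on GM arrays and 364 to 460.5 on GM4 arrays and that of erythroid and megakaryocyte markers 946 to 1212 on GM arrays and 1273 to 1379 on GM4 arrays. The part of these cells in the differences was not tested.

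Differences present before stimulation were then read at 6 and 20 h of LPS with interferon-γ, on other arrays that may come from the same cultures. Of the 852 probe sets higher at 0 h, 391 (45.9%) were called higher at 6 h, when 6.39% of all probe sets were, and 190 (22.3%) at 20 h, when 3.14% were. Of the 884 lower ones, 271 (30.7%) were called lower at 6 h, against 4.74% of all, and 94 (10.6%) at 20 h, against 1.56%. The opposite direction was called for 12 and 6 of the higher and for 5 and 3 of the lower probe sets at 6 and 20 h. In all, 11.1% of probe sets were called at 6 h and 4.7% at 20 h. Both later times kept the call for 142 of the higher and 60 of the lower probe sets. Groups had 2 GM and 3 GM4 arrays at 6 h and 2 of each at 20 h, fewer than the 3 of each at 0 h.

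Among the 25 largest increases 22 were called at 6 h and 15 at 20 h, and among the 25 largest decreases 15 and 5, with 0 called the other way; of all genes 7.73% and 3.54% were called higher and 5.26% and 1.87% lower at these times. A change of the difference itself was called for 0.958% of probe sets between 0 and 6 h and for 1.26% between 0 and 20 h. The difference of Chil3 was called at all 3 times, with means of 528.5, 629 and 328.5 in GM DC and 5915, 5729 and 6034 in GM4 DC at 0, 6 and 20 h. Fbp1 was still called at 6 h, with means of 4.40 and 367, and was below 16 in both groups at 20 h, at 9.35 and 3.25. Cd86 had means in GM DC that went from 91.5 to 1078 at 6 h and 765 at 20 h, against 798, 1579 and 1060 in GM4 DC, and its difference was no longer called. Means of Fos went in GM DC from 1668 to 280.4 at 6 h and 292 at 20 h, against 280.5, 114 and 324 in GM4 DC. Rgs2 likewise went from 594 to 67.3 and 39.3 in GM DC and from 160 to 99.3 and 56.8 in GM4 DC. Over the 25 increases the median log2 difference was 2.44, 1.69 and 1.33 at the 3 times, and over the 25 decreases -2.00, -1.24 and -0.64; the genes were chosen for their size at 0 h, and a smaller value later can come from that choice.

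**Figure D5:**
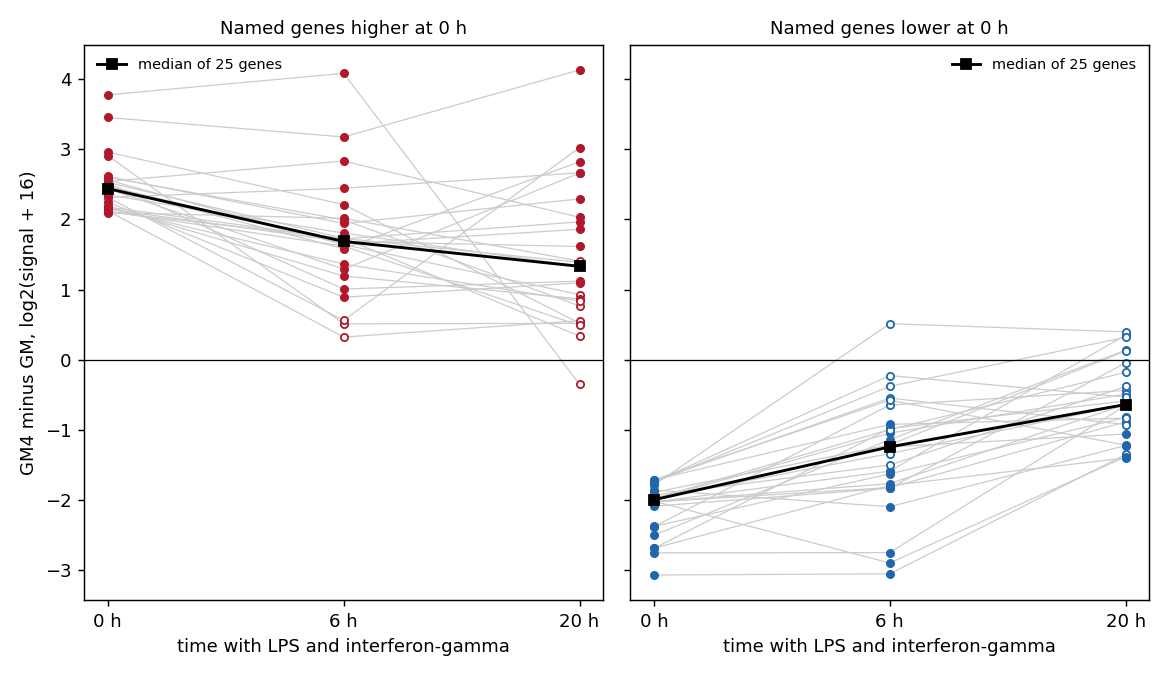
Log2 difference, GM4 minus GM, of the 25 genes with the largest increases at 0 h (left) and the 25 with the largest decreases (right) at 0, 6 and 20 h of LPS and interferon-γ; filled points were called at that time, open points were not, and the black line joins the medians, 2.44, 1.69 and 1.33 on the left and -2.00, -1.24 and -0.64 on the right.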

How the data were processed

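The authors deposited signal intensity values for each probe set of 15 Affymetrix arrays. Per the submitters' processing notes MAS5 was used, its version and settings are not given in the sources used here, and the trimmed mean of the deposited signals was equal on all arrays. Of 12488 probe sets, 66 control sets were left out, and the remaining 12422 were taken to log2 of the deposited signal plus 16. limma 3.58.1 in R 4.3.3 (lmFit, then eBayes with trend) was fitted to 15 arrays in 6 groups, with residual df 9, and p-values were adjusted over 12422 probe sets by Benjamini-Hochberg. Platform annotation gave 10833 probe sets 1 symbol, 396 several and 1193 none; 10817 were matched by Entrez number to a current symbol and 0 changed. Each of 8251 genes is represented by its probe set of highest mean signal, also where others exist. Of the 25 largest increases 7 had further probe sets, and for 5 of these no other set was called. The same counts held for the 25 largest decreases. Probe sets whose names mark probes shared with related sequences read Anxa1, Atf3, C1ra, Cd80, Cd86, Fas, Fcer1g, Fcgr1, Flt3, Gadd45b, Ifi204, Jak3, Kif20a, Ly6e, Myb, Ptpn6, Socs3 and Tes, and these may be less specific. Genes were named by size: the 25 largest called increases and decreases whose groups did not overlap; others are members of 47 lists, of which 10 hold cell type markers. The comparison, lists and markers were chosen with earlier results of these data known. On simulated data with 200 changed probe sets the fit recovered 77% of log2 changes of 1 and 100% of changes of 2, and 6.35% of its calls were false. The simulated noise was independent, with no group difference in RNA quality and no shared cultures. The false share among the calls reported here is therefore not known from it. Alternatives were other offsets, normalizations and filters, a replicate block, array weights, no intensity trend, an RNA quality covariate, only the 2 groups compared and each array left out in turn. The number of arrays limits the precision.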

Additional observations from a re-analysis of the deposited data

Results flagged for a closer look

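For some of the 50 genes with the largest differences the GM4 minus GM difference changed between 0 h and a later time by a test of that change itself (limma interaction term, adjusted over all probe sets; adjusted p 0.00141 to 0.0425). In each case the difference became smaller. At 20 h the change was -4.13 on the log2 scale for Fbp1, -2.44 for Tnfrsf9, -2.39 for Cd86, -2.19 for Stard10, -1.83 for Gimap1, -1.63 for Avpi1, -1.63 for Pkp3 and -1.32 for Tes among genes higher in GM4 DC. Among genes lower in GM4 DC it was 2.64 for Fos, 2.19 for Rgs2, 2.10 for Clec4d, 2.10 for Cd93, 2.07 for Ccl3, 2.04 for Fpr2, 2.02 for Ccl6, 1.50 for Clec4a2, 1.39 for Cd14 and 1.21 for Hopx. At 6 h it was -2.40 for Cd86, -1.51 for Septin4, 2.30 for Rgs2 and 1.52 for Hopx. Over all probe sets such a change was called for 0.958% at 6 h and 1.26% at 20 h. The genes were chosen for their size at 0 h and each change shares the 0 h arrays, so a shrinking difference is partly built in. With 3 arrays a group, no array was tested as an outlier.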

How the results depend on the processing

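The 1736 probe sets called at 0 h were 964 with the RNA quality covariate, 1143 with only the 2 groups compared and 1114 to 1690 when each array was left out in turn, lowest without GM replicate 2. Calls shared with 6 h (662) were 437 with the RNA quality covariate, 339 with only the 2 groups compared and 492 to 650 with an array left out; those shared with 20 h (284) were 207 with the covariate and 222 to 313 with an array left out. The median log2 difference turned from -0.27 to 0.14 for matrix genes and from -0.59 to 0.12 for stromal markers with the RNA quality covariate; the cause was not tested. The count was 1664 with offset 1, 1751 with offset 64, 1772 without the intensity trend, 2460 with array weights and 1843 of 7453 probe sets after the signal filter. Of the 50 genes named by size, 47 kept their call in every setting, and Fabp7, Apoc2 and Wfdc18 lost it with the RNA quality covariate. Averaging the probe sets of each gene moved the value of 13 of the 50. With the replicate block the count was 2116 (797 shared with 6 h, 405 with 20 h); same-numbered arrays correlated at 0.332, 0.056 and 0.225 in their deviations, each best with its own number, which falls short of a pairing. Signal limits low genes: 209 called probe sets had both means below 50.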

Other observations

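Related genes were read in the order of their chromosome, without a test, since the groups of genes were picked after their values were seen. On chromosome 11, 11 genes of the CC chemokine cluster were measured. From one end Ccl2 (log2 difference 0.90 ± 0.28), Ccl7 (1.54 ± 0.46), Ccl12 (2.31 ± 0.30), Ccl8 (1.36 ± 0.31) and Ccl5 (1.88 ± 0.36) were called higher in GM4 DC, with Ccl11 (-0.02 ± 0.12) and Ccl1 (-0.28 ± 0.47) between them not passing. The next 4 genes, Ccl9 (-0.65 ± 0.15), Ccl6 (-1.89 ± 0.28), Ccl3 (-1.75 ± 0.25) and Ccl4 (-1.04 ± 0.18), were called lower. Ccl2 lost its call in 9 of the 15 alternatives (adjusted p up to 0.182), Ccl7 in 6 (up to 0.148), Ccl8 in 2 (up to 0.0858) and Ccl9 in 2 (up to 0.29), whereas Ccl12, Ccl5, Ccl6, Ccl3 and Ccl4 held theirs.

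In the interleukin-1 cluster of chromosome 2, Il1rn (-1.51 ± 0.15), Il1a (-0.70 ± 0.15) and Il1b (-0.90 ± 0.25) were called lower, the agonists as well as the antagonist, and Il1f5 did not pass (-0.47 ± 0.26). Il1a lost its call in 2 of the 15 alternatives (adjusted p up to 0.0943) and Il1b in 4 (up to 0.104). Among 6 measured genes of C-type lectins on chromosome 6, Clec4a2 (-1.99 ± 0.20), Clec4d (-2.76 ± 0.19), Clec4e (-0.79 ± 0.21) and Klrb1b (-1.71 ± 0.24) were called lower, and Clec4f (-0.48 ± 0.30) and Klrb1a (-0.47 ± 0.29) did not pass. Clec4e lost its call in 5 of the 15 alternatives (adjusted p up to 0.0932). These 6 genes were read by their order only, without distances, and need not be close neighbours.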
